A study of Homo sapiens with 9 samples.

Results

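The genes described here are the cyclins that drive cells through G1, the D-type cyclins CCND1, CCND2 and CCND3 and the E-type cyclins CCNE1 and CCNE2, and the cyclin-dependent kinase (CDK) inhibitors CDKN1A, CDKN1B, CDKN1C, CDKN2B and CDKN2C. Members were all probe sets of the deposited table whose single gene symbol in the platform annotation is one of these 10 names. This gave 21 probe sets of 54675, 12 for the cyclins and 9 for the inhibitors, covering 9 of the 10 genes. No probe set carried the symbol CDKN2C alone, so that gene is not analysed here.

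LiSa-2 is a human liposarcoma cell line, a malignant line of the fat lineage. Per the labels, cells grown on plates in medium with bovine serum received bovine testicular hyaluronidase (HAase), an enzyme preparation that cleaves hyaluronan, at 400 µg/mL for 6 h or 24 h, or phosphate-buffered saline (PBS) with harvest at 24 h. There were 3 groups of 3 samples, each on 1 Affymetrix expression array, and all came from this 1 cell line. Since PBS was harvested at 24 h only, an effect of the enzyme at 6 h and an effect of harvest time cannot be told apart. The same holds for differences between HAase at 24 h and at 6 h. No group received inactivated enzyme.

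In G1, D-type cyclins bind CDK4 and CDK6 and carry mitogen signals to the retinoblastoma protein, whose phosphorylation releases E2F transcription factors. E-type cyclins then activate CDK2 and take cells into S phase. Inhibitors of the CIP/KIP family (CDKN1A, encoding p21, CDKN1B, encoding p27, and CDKN1C, encoding p57) bind cyclin-CDK complexes broadly, whereas INK4 inhibitors such as CDKN2B (p15) bind CDK4 and CDK6 alone. CDKN1A is best known as a target of p53, CDKN2B as a target of TGF-beta, and CDKN1C as an imprinted gene expressed in quiescent and differentiated cells.

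Values are linear signals per probe set, scaled by the authors to a common level on every array. The level below which a signal has only an upper bound was the brightest of that array's 27 Bacillus subtilis control probe sets, which lay between 34.2 and 65.0. Of the 21 probe sets, 11 lay above this control level on all 9 arrays, 4 on some and 6 on none. For each gene the probe set with the highest mean log2 value is the main one, and all 9 genes passed the filter on dim genes. Fold changes are differences of log2(signal + 16), which understate changes of dim genes, and were tested with limma over 13842 genes. Changes are called at a Benjamini-Hochberg adjusted p under 0.05. Whether replicates came from separate cultures is not in the labels, and the p-values then reflect only how far these 9 samples varied, possibly for technical reasons.

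The liposarcoma label was set against marker genes. In PBS, 8 of 9 adipocyte markers lay above the control level on all 3 arrays, while EPCAM, CDH1 and KRT19 (epithelial), PTPRC (leukocyte) and CDH5 and TEK (endothelial) lay at or below it on all 9 arrays; 3 of 7 epithelial markers, the keratins KRT7, KRT8 and KRT14, lay above it in PBS. Of the other endothelial markers, PECAM1 lay above it on all 9 arrays, VWF on 2 PBS arrays and 1 array at 6 h, and KDR on 1 array at each HAase time; the list's summed signal was 277 to 342 in PBS, 374 to 427 at 6 h and 420.3 to 442 at 24 h. The summed signal of the 5 measured leukocyte markers was 169 to 237 in PBS, 288 to 320 at 6 h and 734 to 763 at 24 h, with CD163 and LCP1 above the control level on all 9 arrays. The summed signal of the 9 adipocyte markers was 57618 to 59710 in PBS, 45092 to 47358 at 6 h and 28991 to 33603 at 24 h. Of the 8 adipocyte markers tested with limma, 6 were lower at 6 h (median log2 fold change -1.019), against 27.4% of all genes. At 24 h all 8 were lower (median -2.391), against 22.8%. For ACTB, the 3′ minus 5′ log2 signal, a sign of RNA quality, was 1.56 to 1.70 in PBS, 1.14 to 1.49985 at 6 h and 1.38 to 1.62 at 24 h. The part of these differences in the results below was not tested.

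After HAase, the mRNAs of cyclin D1 and p21 rose while those of the other 3 inhibitors measured among the members, p27, p57 and p15, fell. CCND1 was 6.67-fold higher at 6 h and 17.9-fold higher at 24 h than in PBS, and CDKN1A was 3.38-fold and 3.04-fold higher. CDKN1C was 8.18-fold lower at 6 h and 5.34-fold lower at 24 h, CDKN1B 1.84-fold and 1.49-fold lower, and CDKN2B 1.23-fold and 1.93-fold lower. The E-type cyclin CCNE1 was 1.55-fold and 1.39-fold higher. CCNE2 and CCND3 were higher at 6 h by small amounts and not called at 24 h, and CCND2 lay near the control level throughout.

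At 6 h, 8 of the 9 genes changed by limma, 5 higher and 3 lower, against 42.4% of all genes tested (15.0% higher and 27.4% lower). At 24 h, 6 changed, 3 higher and 3 lower, against 40.3% of all genes (17.5% higher and 22.8% lower). The arrays of the compared groups did not overlap for 8 members at 6 h, against 54.2% of all genes, and for 6 at 24 h, against 52.0%. Changes of 2-fold or more were those of CCND1, CDKN1A and CDKN1C at both times, 3 of 9 members against 6.60% of all genes at 6 h and 8.25% at 24 h. The median log2 fold change of the members was 0.175 at 6 h and 0.061 at 24 h, against -0.083 and -0.026 for all genes. Both comparisons share the PBS arrays.

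**Figure D1:**
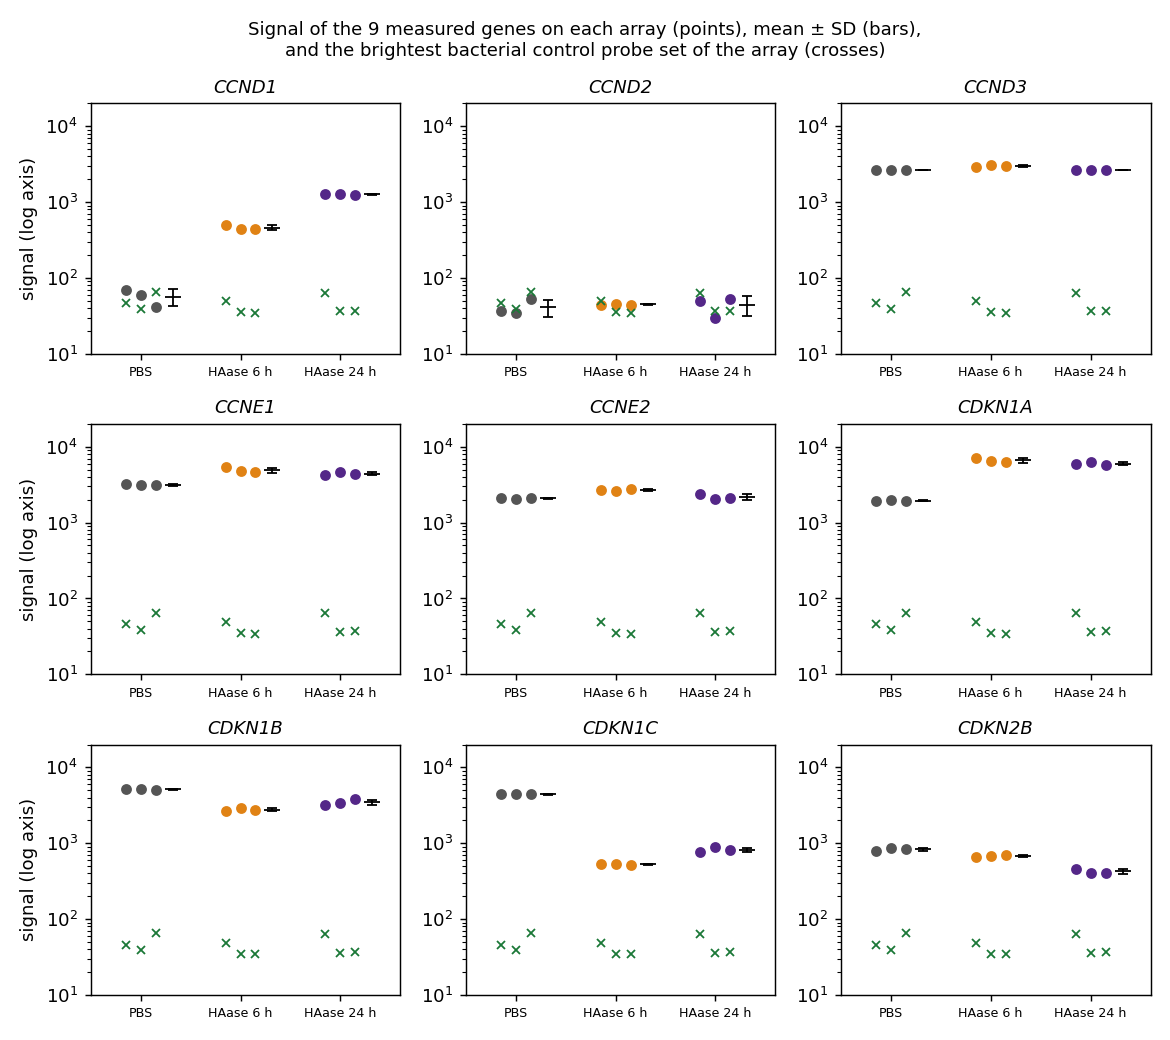
Signal (log axis) of the main probe set of each of the 9 genes on each of the 9 arrays, as points, with the mean ± SD of each group of 3 as a bar and the control level of each array as green crosses. CCND1 goes from about the control level in PBS to 1261 at 24 h, CDKN1C drops from 4445 in PBS to 529 at 6 h, and CCND2 stays among the crosses in every group.

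CCND1 encodes cyclin D1, the D-type cyclin that responds most widely to mitogens. Its signals were 68.4, 59.4 and 40.7 on the PBS arrays, 499, 439 and 439.8 at 6 h, and 1268, 1264 and 1251 at 24 h. The 3 groups did not overlap, and on this main probe set the 24 h arrays differed from each other by less than the 6 h arrays did. The other CCND1 probe set showed the reverse (SD 118 at 24 h and 18.8 at 6 h). The means of the main probe set were 56.1 ± 14.1 in PBS, 459 ± 34.2 at 6 h and 1261 ± 9.01 at 24 h (SD, n = 3 each). Against PBS, the log2 fold change was 2.74 ± 0.14 (SE, limma adjusted p = 3.55e-06) at 6 h and 4.16 ± 0.14 (2.78e-07) at 24 h. Ranked by fold change, this was the 48th largest rise of the 13842 genes at 6 h and the 23rd largest at 24 h. From 6 h to 24 h it rose a further 2.69-fold (log2 difference 1.43 ± 0.14 SE, adjusted p = 1.77e-04), the largest of the members' differences between the times.

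The PBS level of CCND1 was above the control level on 2 of 3 arrays, so the size of the rise is uncertain. With a pseudocount of 64 in place of 16 the log2 fold change at 24 h was 3.47 and at 6 h 2.13. The other CCND1 probe set gave signals of 40.8, 50.6 and 27.3 in PBS (1 of 3 above the control level), 218, 182 and 192 at 6 h, and 504, 332 and 278 at 24 h. It too did not overlap between groups, with log2 fold changes of 1.96 ± 0.23 at 6 h and 2.78 ± 0.23 at 24 h (SE, limma adjusted p = 9.96e-04 and 1.17e-04 over every probe set with 1 symbol). Its difference between 24 h and 6 h, 0.82 ± 0.23, was not called (adjusted p = 0.0610). The mean of both probe sets gave 2.35 at 6 h and 3.47 at 24 h.

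Cyclins D2 and D3 can take the place of cyclin D1 in binding CDK4 and CDK6. The main CCND2 probe set gave signals of 36.2, 34.1 and 52.6 in PBS, 44.4, 44.9 and 44.4 at 6 h, and 49.8, 29.976 and 53.1 at 24 h. It lay above the control level on 0 of 3 PBS arrays, 2 of 3 at 6 h and 1 of 3 at 24 h, and the groups overlapped. The other 3 CCND2 probe sets lay at or below the control level on all 9 arrays. A CCND2 level was thus not measured in PBS, and its differences from PBS (0.10 at 6 h and 0.07 at 24 h on the log2 scale, limma adjusted p = 0.674 and 0.773) carry no fold.

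CCND3 was bright and nearly level. Its signals were 2661, 2666 and 2645 in PBS, 2912, 3070.45 and 3026 at 6 h, and 2636, 2649.8 and 2642.5 at 24 h. The 6 h arrays lay above all others, and the PBS and 24 h arrays overlapped. The rise at 6 h was 0.17 ± 0.04 on the log2 scale (SE, limma adjusted p = 0.0139), and at 24 h the difference was -0.01 with a 95% interval from -0.11 to 0.09 (adjusted p = 0.909). From 6 h to 24 h CCND3 fell by 0.18 on the log2 scale (adjusted p = 0.0148). Both calls were lost without HAase 6 h replicate 2 (0.16 at 6 h and -0.17 between the times, adjusted p = 0.0501 and 0.0529) and in the fit over every probe set without the filter (0.17 and -0.18, adjusted p = 0.108 and 0.116). The other CCND3 probe set lay at or below the control level on all 9 arrays, and averaging it with the main one turned the 6 h value to -0.09 and the difference between the times to 0.02 (adjusted p = 0.808 and 0.960).

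Among the E-type cyclins, CCNE1 rose at both times and CCNE2 at 6 h. CCNE1 gave signals of 3244, 3157 and 3089.55 in PBS, 5341, 4775 and 4602 at 6 h, and 4256, 4605 and 4338 at 24 h. All 6 HAase arrays lay above all PBS arrays, and the 2 HAase groups overlapped. The means were 3163 ± 77.2, 4906 ± 387 and 4399.8 ± 183 (SD, n = 3 each). Log2 fold changes were 0.63 ± 0.07 at 6 h and 0.47 ± 0.07 at 24 h (SE, limma adjusted p = 2.19e-04 and 8.87e-04). The difference between the times, -0.15 with a 95% interval from -0.31 to 0.00, was not called (adjusted p = 0.125), although the trended and robust variance model called it (adjusted p = 0.0495). The other CCNE1 probe set lay at or below the control level on all 9 arrays.

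CCNE2 signals were 2097, 2073 and 2103 in PBS, 2677, 2615 and 2777 at 6 h, and 2403, 2060.45 and 2101 at 24 h. The 6 h arrays lay above all others, and at 24 h only replicate 1 lay above the PBS arrays. The log2 fold change was 0.36 ± 0.07 at 6 h (SE, limma adjusted p = 0.00346) and 0.06 at 24 h, with a 95% interval from -0.09 to 0.22 (adjusted p = 0.515). From 6 h to 24 h it fell by 0.30 on the log2 scale (adjusted p = 0.0110, or 0.0532 in the fit over every probe set). The dimmer CCNE2 probe set was also highest on the 6 h arrays but at 24 h overlapped PBS, with signals of 309.9, 285 and 359 in PBS, 429, 461 and 392 at 6 h, and 364, 285 and 213 at 24 h. None of its differences was called (log2 difference 0.41 at 6 h, adjusted p = 0.183, and -0.16 at 24 h, adjusted p = 0.628). Thus 4 of 5 cyclin genes rose at 6 h, against 15.0% of all genes, and 2 of 5 at 24 h, against 17.5%. None was called lower at either time, against 27.4% and 22.8% of all genes. CCND1 and CCND2 lay near the control level in PBS, so a fall of either could hardly have been seen. The count of rises at 6 h includes CCND3, whose call was lost in some settings.

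CDKN1A, encoding p21, was the only inhibitor gene measured among the members that rose. Its single probe set gave signals of 1902, 1991 and 1947.5 in PBS, 7133, 6456 and 6278 at 6 h, and 5881, 6262 and 5718 at 24 h. Every HAase array lay far above every PBS array, and all 24 h arrays lay below all 6 h arrays. The means were 1947 ± 44.3, 6622 ± 451 and 5954 ± 279 (SD, n = 3 each). On the log2 scale it rose by 1.76 ± 0.06 at 6 h and 1.60 ± 0.06 at 24 h (SE, limma adjusted p = 7.47e-07 and 7.83e-07), the 173rd and 262nd largest rises. The difference between the times, -0.15 ± 0.06, was not called (adjusted p = 0.116), but passed with the trended and robust variance model (0.0440).

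CDKN1B, encoding p27, is controlled largely through destruction of the protein, which these arrays do not measure. Its single probe set gave signals of 5165, 5114 and 5097 in PBS, 2672, 2903 and 2763 at 6 h, and 3199.6, 3355 and 3783 at 24 h. The 3 groups did not overlap: 6 h was lowest and 24 h lay between. CDKN1B mRNA stood at 54.2% of its PBS mean at 6 h and at 67.2% at 24 h. Its log2 fold change was -0.88 ± 0.07 at 6 h and -0.57 ± 0.07 at 24 h (SE, limma adjusted p = 4.69e-05 and 3.74e-04). The partial return between the times was 0.31 ± 0.07 (adjusted p = 0.0123, or 0.0548 in the fit over every probe set).

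CDKN1C, encoding p57, fell most. The main probe set gave signals of 4402, 4522 and 4410.5 in PBS, 538, 529 and 521 at 6 h, and 777, 878 and 805 at 24 h. The groups did not overlap, and 6 h was lowest. The means were 4445 ± 67.3, 529 ± 8.14 and 820.1 ± 52.3 (SD, n = 3 each), which put CDKN1C at 11.9% of its PBS level at 6 h and 18.5% at 24 h. The log2 fold change was -3.03 ± 0.06 at 6 h and -2.42 ± 0.06 at 24 h (SE, limma adjusted p = 3.95e-08 and 5.73e-08). By fold change this was the 4th largest fall of the 13842 genes at 6 h and the 68th largest at 24 h. Between the times it rose 1.53-fold (log2 difference 0.62 ± 0.06 SE, adjusted p = 1.47e-04).

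CDKN1C had 5 probe sets, of which 4 lay above the control level on all 9 arrays. All 4 showed the same order, PBS highest and 6 h lowest, with no overlap between groups. Their log2 fold changes ranged from -3.31 to -2.62 at 6 h and from -2.44 to -2.001 at 24 h, and their differences between 24 h and 6 h from 0.62 to 0.87 (limma adjusted p at most 0.0223 in the fit over every probe set). In linear signal they stood at 8.69% to 14.6% of PBS at 6 h and 17.2% to 23.3% at 24 h. The remaining probe set gave signals of 1.55 to 4.64 and lay below the control level on all 9 arrays. Averaging all 5 probe sets, that one included, gave -2.36 at 6 h and -1.81 at 24 h.

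**Figure D2:**
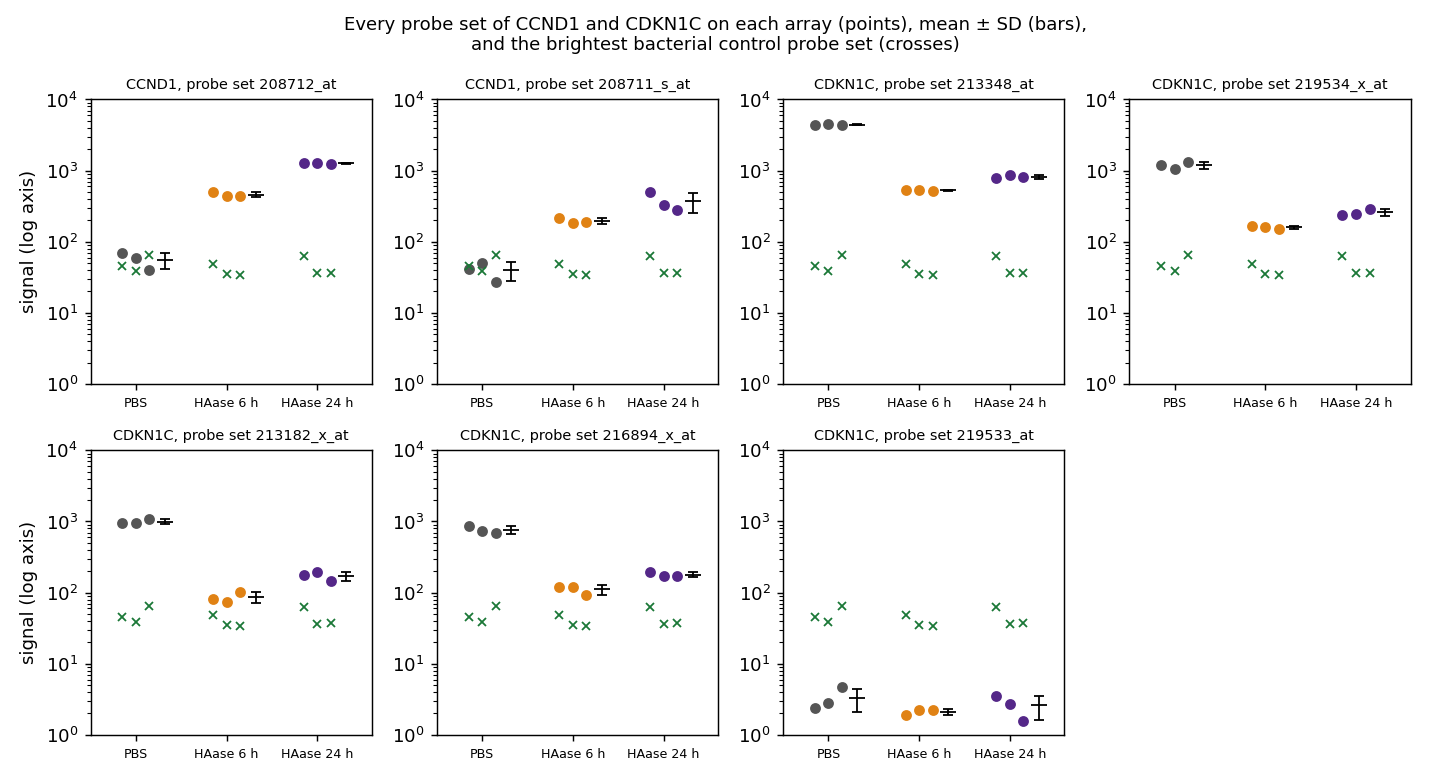
Signal (log axis) of both CCND1 probe sets and all 5 CDKN1C probe sets on each array, as points, with the mean ± SD of each group as a bar and the control level of each array as green crosses. Both CCND1 probe sets rise from the control level, 4 CDKN1C probe sets fall in parallel and partly return by 24 h, and the last CDKN1C probe set lies below the crosses on every array.

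CDKN2B, encoding the INK4 inhibitor p15, was lower at 24 h than at 6 h, unlike CDKN1B and CDKN1C. Its main probe set gave signals of 794, 864 and 849.6 in PBS, 650.2, 675 and 696 at 6 h, and 461, 409.6 and 409 at 24 h. The groups did not overlap and the order was PBS, 6 h, 24 h. The log2 fold change was -0.30 ± 0.07 at 6 h (SE, limma adjusted p = 0.00714) and -0.94 ± 0.07 at 24 h (1.53e-05). The further fall between the times was -0.64 ± 0.07 (adjusted p = 2.53e-04). The second CDKN2B probe set lay above the control level on 1 of 9 arrays. Averaging it with the main one kept the call at 24 h (-0.78, adjusted p = 0.0309) and lost those at 6 h (-0.30, 0.370) and between the times (-0.49, 0.171).

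**Figure D3:**
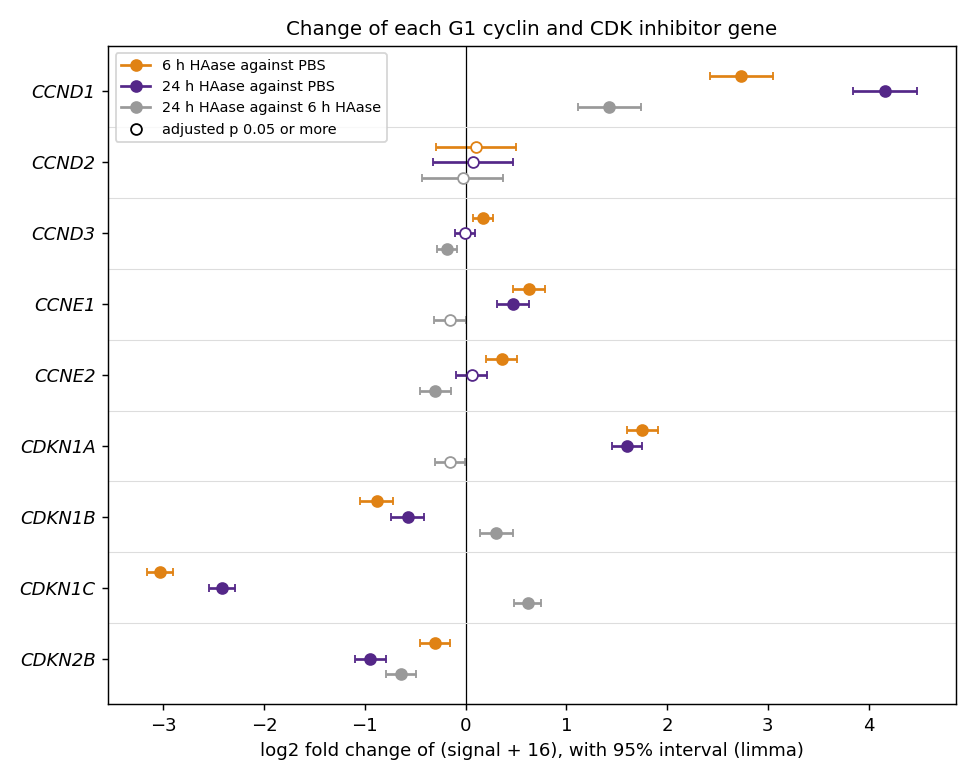
Log2 fold change of (signal + 16) for each of the 9 genes with its 95% interval from limma, for 6 h against PBS (orange), 24 h against PBS (purple) and 24 h against 6 h (grey). Filled points passed an adjusted p of 0.05. CCND1 moves further from PBS at 24 h, CDKN1B and CDKN1C move back towards it, and CDKN2B moves further down.

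In the comparison of 24 h with 6 h, 6 of 9 genes changed, against 33.0% of all genes: CCND1, CDKN1B and CDKN1C were higher at 24 h (19.7% of all genes were) and CCND3, CCNE2 and CDKN2B lower (13.3%). For 7 members, CDKN1A included, the arrays of the 2 times did not overlap, against 45.9% of all genes. Only CCND1 differed between the times by 2-fold or more, against 4.03% of all genes. For CCNE2, CCND3, CDKN1B and CDKN1C the 24 h mean lay on the PBS side of the 6 h mean, whereas for CCND1 and CDKN2B it lay beyond it.

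Start-site sequences of the members were taken from RefSeq (GRCh38.p14) to show the promoters of genes that moved in different directions. The table held windows for 6 of the 10 listed genes, and those of CDKN1A and CCNE1, which rose, and CDKN1B and CDKN2B, which fell, have 1 window each. Printed are the 250 bases before each start, 5′ to 3′ on the gene's strand, with capitals marking GC boxes (GGGCGG, the core of SP-family binding sites) and CCAAT boxes on either strand.
CDKN1A promoter, chr6:36678464-36678713, plus strand: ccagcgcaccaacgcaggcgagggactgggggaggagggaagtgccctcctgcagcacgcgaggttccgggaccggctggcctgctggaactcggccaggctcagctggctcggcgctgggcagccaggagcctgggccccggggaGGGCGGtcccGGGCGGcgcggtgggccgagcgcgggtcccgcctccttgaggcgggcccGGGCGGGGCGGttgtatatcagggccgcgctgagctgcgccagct
CCNE1 promoter, chr19:29811741-29811990, plus strand: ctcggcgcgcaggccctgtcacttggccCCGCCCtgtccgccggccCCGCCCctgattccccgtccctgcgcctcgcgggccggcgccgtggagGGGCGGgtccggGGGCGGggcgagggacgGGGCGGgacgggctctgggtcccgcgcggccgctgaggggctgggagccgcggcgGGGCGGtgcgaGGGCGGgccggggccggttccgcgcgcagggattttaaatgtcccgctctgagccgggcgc
CDKN1B promoter, chr12:12717118-12717367, plus strand: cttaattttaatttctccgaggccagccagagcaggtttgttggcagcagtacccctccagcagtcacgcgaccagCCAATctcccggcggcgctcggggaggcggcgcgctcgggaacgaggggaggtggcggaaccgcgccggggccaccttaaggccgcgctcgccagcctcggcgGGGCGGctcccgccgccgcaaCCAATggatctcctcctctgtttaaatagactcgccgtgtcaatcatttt
CDKN2B promoter, chr9:22009306-22009555, minus strand: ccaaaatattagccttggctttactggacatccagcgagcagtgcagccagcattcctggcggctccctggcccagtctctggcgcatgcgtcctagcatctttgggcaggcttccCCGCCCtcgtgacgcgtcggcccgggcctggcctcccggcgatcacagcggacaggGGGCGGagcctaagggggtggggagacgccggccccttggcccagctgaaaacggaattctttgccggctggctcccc
The CDKN1A window held 4 GC boxes, one pair of which shares a base and lies 35 to 45 bases before the start. CCNE1 held 7 GC boxes, CDKN2B 2 and CDKN1B 1, and CDKN1B also held 2 CCAAT boxes. Of 35116 windows of this length in the table, 42.6% held a GC box and 32.0% a CCAAT box. The GC content was 76.4% for CDKN1A, 81.2% for CCNE1, 64.4% for CDKN1B and 66.4% for CDKN2B, against a median of 58% over all windows. The letters of an AP-1 site (TGACTCA, in 4.20% of all windows) and of an E2F site (TTCCCGC or TTGGCGC, in 7.81%) did not occur in these 4 windows on either strand. These matches describe the letters only, and sites with other letters were not searched for.

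Among the kinases that G1 cyclins activate, CDK6 rose most. Of 9 genes listed for G1 kinases and their regulators, 5 rose and 2 fell at 6 h (limma). At 24 h, 3 rose and 1 fell. Those that fell were CDKN2D at 6 h and CDKN3 at both times. For this list and those below, 15.0% of all genes were higher and 27.4% lower at 6 h. At 24 h these shares were 17.5% and 22.8%. CDK6, a partner of D-type cyclins, had log2 fold changes of 1.12 at 6 h and 0.52 at 24 h (adjusted p = 1.22e-04 and 0.00618), and CDC25A, the phosphatase that activates CDK2, 0.63 and 0.59 (0.00127 and 0.00166). CDKN2D, an INK4 inhibitor, fell by 1.21 at 6 h (4.52e-04) and gave -0.40 at 24 h (0.0694), and the CDK phosphatase gene CDKN3 fell at both times (-0.58 and -0.53). The median of the list was 0.221 at 6 h and 0.005 at 24 h.

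Among 16 tested genes of the retinoblastoma family, the E2F and DP factors and their partners, 3 rose and 7 fell at 6 h, and 3 rose and 5 fell at 24 h. The repressor gene E2F7 rose by 0.43 at 6 h and 1.11 at 24 h on the log2 scale (limma adjusted p = 0.00119 and 5.33e-06), while its relative E2F8 fell (-0.65 and -0.69). The pocket protein gene RBL2 fell (-0.63 and -0.48), and the activator E2F1 gave -0.25 at 6 h (adjusted p = 0.352) and fell by 0.71 at 24 h (0.0196). The list medians were -0.257 and 0.015.

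Of 14 tested genes for ubiquitin ligase parts that remove G1 cyclins and inhibitors, 1 rose and 3 fell at 6 h. At 24 h, 2 rose and 2 fell. The share called was 28.6% at each time, below the 42.4% of all genes at 6 h and 40.3% at 24 h. SKP2, which targets p27 for destruction, gave a log2 fold change of 0.04 at 6 h (limma adjusted p = 0.586) and fell by 0.34 at 24 h (0.00167). FBXW7, which targets cyclin E, rose by 0.33 at 6 h (0.0157) and gave 0.14 at 24 h (0.243). FBXO4 fell by 0.54 at 6 h (0.00173), and CUL4A rose by 0.30 at 24 h (0.0266).

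Of 19 tested S-phase entry genes driven by E2F, which include CCNE1, CCNE2 and E2F1, 6 rose and 2 fell at 6 h, while 2 rose and 9 fell at 24 h. The members CCNE1 and CCNE2 were among the 6 that rose at 6 h, and CCNE1 among the 2 that rose at 24 h. The share called was 42.1% at 6 h and 57.9% at 24 h, against 42.4% and 40.3% of all genes. The median log2 fold change was -0.036 at 6 h and -0.177 at 24 h. TK1, a thymidine kinase of S phase, fell by 0.39 and 0.64 (limma adjusted p = 0.00470 and 3.33e-04), and CCNA2, the cyclin that follows cyclin E, fell by 0.59 and 0.29 (2.23e-04 and 0.00819). TK1 and CCNA2 were the only 2 genes of the list that fell at 6 h. The 10 proliferation markers all fell at 6 h (median -0.752) and 7 of 10 fell at 24 h (median -0.340), the largest fall being that of CCNB2 at 6 h (-1.14). In bulk samples, fewer cells in a cycle phase and less RNA per cell cannot be told apart.

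CDKN1A was set beside other p53 targets. Of 15 tested, 5 rose and 7 fell at each time, with medians of -0.369 at 6 h and -0.107 at 24 h. GADD45A, a stress-induced growth arrest gene, rose by 1.88 and 1.37 on the log2 scale (limma adjusted p = 7.89e-07 and 2.74e-06). SESN2 rose by 0.516 and 1.498, and PLK3, above the control level on 1 of 3 PBS arrays, by 1.44 and 1.49. TP53I3, an oxidoreductase induced by p53, fell by 0.66 and 1.80 (4.21e-04 and 1.46e-06). A part of p53 in the rise of CDKN1A was not tested.

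Transcription factors driven by mitogens, several of which bind the CCND1 promoter in other settings, rose in 11 of 16 at 6 h and fell in 1, and rose in 10 and fell in 3 at 24 h. The medians were 0.732 at 6 h and 0.349 at 24 h. EGR1 rose by 5.02 at 6 h and 1.54 at 24 h (limma adjusted p = 3.60e-09 and 5.29e-07) and JUNB by 2.35 and 1.31. FOSL1, an AP-1 subunit, rose by 2.61 and 2.76 (1.69e-07 and 9.19e-08). FOS, at or below the control level on all PBS arrays, was at least 4.33-fold higher at 6 h and at least 1.10-fold higher at 24 h. From 6 h to 24 h, 12 of the 16 fell and none rose, against 13.3% of all genes lower and 19.7% higher. A link of these factors to CCND1 was not tested.

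CDKN2B was set beside regulators of the TGF-beta and FOXO pathways. Of 12 tested, 7 rose and none fell at 6 h, and 7 rose and 1 fell at 24 h. The ligand gene TGFB2 rose by 0.98 and 1.67 on the log2 scale (limma adjusted p = 5.00e-05 and 1.83e-06), the receptor genes TGFBR1 by 0.90 and 1.21 and TGFBR2 by 1.10 and 0.59, and the signal transducer SMAD3 by 1.22 and 1.18. CDKN2B fell at both times. The activity of these pathways was not measured, and a link to CDKN2B was not tested.

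CDKN1C lies in an imprinted domain, and 6 of its listed neighbours were tested. At each time 1 rose and none fell. PHLDA2, a growth-restraining imprinted gene that like CDKN1C is expressed from the maternal copy, rose by 2.04 at 6 h and 2.13 at 24 h on the log2 scale (limma adjusted p = 1.62e-07 and 9.19e-08). KCNQ1OT1, the non-coding RNA that silences the domain on the paternal copy, gave -0.51 and -0.59 (adjusted p = 0.361 and 0.296).

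**Figure D4:**
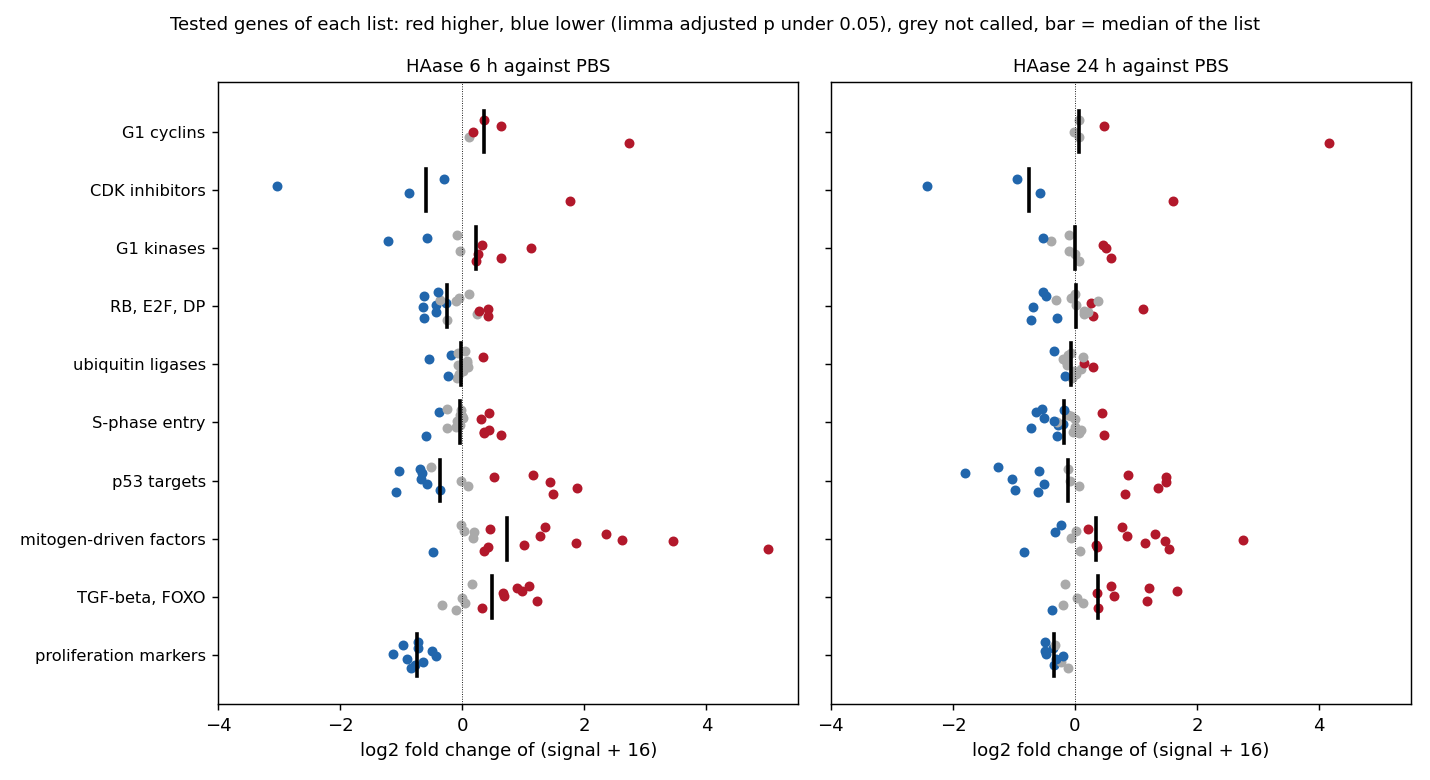
Log2 fold change of (signal + 16) of every tested gene of the cyclins, the inhibitors and 8 other lists, at 6 h (left) and 24 h (right) against PBS, with red for higher, blue for lower, grey for not called by limma, and a black bar at each list's median. CDKN1A is the single red point among the inhibitors, the mitogen-driven factors lie mostly to the right, and the proliferation markers lie to the left, further so at 6 h (median -0.752) than at 24 h (-0.340).

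The genes whose pattern over the 9 arrays was most like that of a member were ranked by Pearson's r on the log2 scale, as a description across 3 groups that differ strongly. For CCND1 these were the organic cation transporter gene SLC22A4 (r = 0.9976, log2 fold change 2.70 at 6 h and 3.86 at 24 h), ARHGAP18 (0.9973) and the metalloproteinase inhibitor gene TIMP1 (0.9968). For CDKN1A they were the small MAF factor gene MAFF (0.9979, log2 fold change 4.05 and 3.68), the TWEAK receptor gene TNFRSF12A (0.9971) and RYBP (0.9967). For CDKN1C they were NEURL1B (0.9989, log2 fold change -2.04 and -1.62), the non-coding RNA LINC00847 (0.9975) and the stress-response gene NUPR1 (0.9963). Such r values were common: 367 genes exceeded 0.95 with CCND1, 353 with CDKN1A and 348 with CDKN1C.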

How the data were processed

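RNA of 9 LiSa-2 samples was measured, 1 array each. The authors deposited linear signal intensity per probe set; per the series design text, the tables came from CHP files. How probes were summarised is not given in the sources used here. A trimmed mean (2% off each end) lay between 500.07 and 500.075 on every array, and no further normalization was applied. The number of arrays limits the precision.

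Of 54675 probe sets, 62 were controls, 41091 had 1 gene symbol, 1801 several and 11721 none in the platform annotation; only those with 1 symbol were used. For each of 19775 genes the probe set with the highest mean log2(signal + 16) was kept. The dimmest 30% of genes (signal under about 32.2) were dropped, and limma 3.58.1 (R 4.3.3) tested the other 13842, with 1 mean per group, all 9 arrays, lmFit, eBayes and Benjamini-Hochberg adjustment. A second limma fit took every probe set with 1 symbol, unfiltered. A group with all 3 arrays at or below the brightest of 27 bacterial control probe sets has only an upper bound. The procedure was tested on simulated data. Pseudocounts, filters, probe set choice, variance models, a replicate block and leaving out single arrays were tried as alternatives.

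Named were all member probe sets, up to 4 called genes per list by size of change, and for each member changed 2-fold or more the 3 genes of highest r. KCNQ1OT1 falls outside this rule and was named after its values were seen. The members and lists were chosen with earlier results of these data known. No coordinates of probe sets are given, because the files name no genome build.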

Additional observations from a re-analysis of the deposited data

Results flagged for a closer look

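For 6 of 9 members HAase at 24 h differed from HAase at 6 h by limma's test of the difference itself, against 33.0% of all genes. In every case the 3 arrays of each time did not overlap. The same held for CDKN1A, which was not called, and for 45.9% of all genes. Harvest time differed as well, with no PBS group at 6 h, so its part cannot be told apart. The log2 difference, 24 h minus 6 h, was 1.43 for CCND1 (adjusted p = 1.77e-04), 0.62 for CDKN1C (1.47e-04), 0.31 for CDKN1B (0.0123), -0.64 for CDKN2B (2.53e-04), -0.30 for CCNE2 (0.0110) and -0.18 for CCND3 (0.0148). In the limma fit over every probe set without the filter, the last 2 and CDKN1B were not called (adjusted p = 0.0532 for CCNE2, 0.116 for CCND3 and 0.0548 for CDKN1B). Groups of 3 arrays are too small for a check of single arrays far from the others.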

How the results depend on the processing

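Each result was recomputed under 11 other settings and with each of the 9 arrays left out. Of 537 member values, 521 kept their direction and side of the threshold; 4 were weaker, 2 passed the test only there, and 10 changed sign. Called changes turned sign for CCND3 with the mean of the gene's probe sets, to -0.0897 at 6 h and 0.0232 between 24 h and 6 h, where the other probe set is below the control level. The other 8 sign changes were of differences called in neither setting. With 1 array left out, CCND2 at 24 h against PBS ranged from -0.0355 to 0.2589 (below 0 without PBS replicate 2, HAase 24 h replicate 1 or HAase 24 h replicate 3), CCNE2 from -0.0075 (without HAase 24 h replicate 1) to 0.1028, and CCND2 between 24 h and 6 h from -0.1383 to 0.1561 (above 0 without HAase 24 h replicate 2). The mean of probe sets turned CCNE2 at 24 h to -0.0505 and CCND2 between the times to 0.0964, and equal array medians turned CCND3 at 24 h to 0.0194. The mean of probe sets also lost CDKN2B at 6 h and between the times. Leaving out HAase 6 h replicate 2 lost CCND3 at 6 h and between the times (adjusted p = 0.0501 and 0.0529). The trended and robust model called CCNE1 and CDKN1A lower at 24 h than at 6 h. Testing each probe set separately gave 8857 calls at 24 h and 8884 at 6 h, from 26599 features. Over the 11 other settings, 25.5% to 54% of features were called at 24 h and 26.1% to 56.5% at 6 h. Between the times the share was 19.7% to 46.6%. Members called under these settings were 6 at 24 h, 6 to 8 at 6 h and 4 to 8 between the times. With 1 array left out, 4818 to 5443 genes were called at 24 h, 4903 to 5806 at 6 h and 3718 to 4399 between the times, and 6, 7 to 8 and 5 to 6 members. With the replicate block 5187, 5447 and 4117 genes and 6, 8 and 6 members were called. Same-numbered arrays did not deviate together (r between -0.049 and 0.037 over 9 pairs), so the numbers were not taken as pairs. Signal near the control level limits CCND1 in PBS and CCND2 throughout.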
